A study of Mus musculus with 123 samples.

Results

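The genes described here encode the proteins of the mitochondrial ribosome. They were taken by symbol, as every gene of the RNA table whose name begins with Mrpl or Mrps followed by a number, which gave 78 of 13842 genes. The set held 50 proteins of the large subunit and 26 of the small subunit. It also held Mrps36, which is known as a subunit of the oxoglutarate dehydrogenase complex, and the pseudogene Mrpl23-ps1. The tissue was cerebral cortex of male C57BL/6J mice, an inbred strain, from which both RNA-seq and ATAC-seq (an assay of open chromatin) libraries were made. The mice were kept in 12 h of light and 12 h of dark, and were 11 to 12 weeks old. Sleep deprivation lasted 6 h, began at light onset (ZT0) and was done by gentle handling.

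Among undisturbed controls with RNA, ZT0 had 8 animals, ZT3 had 3, and ZT6, ZT12 and ZT18 had 5 apiece, where ZT counts hours after lights on. The ZT0 animals carry the labels T0 and T24 and were pooled. Each of 12 sleep-deprived groups held 3 animals. T27 and T30 were taken 3 h and 6 h after deprivation began, T36, T42, T48, T54, T60, T66, T72 and T78 between 12 h and 54 h after it began, and T192 and T198 at 168 h and 174 h. The description label of T36 places it within deprivation, while the protocol ends deprivation earlier. The controls for a deprived group were those taken at its own clock time. T60, T66, T192 and T198 were wholly of the labelled batch 2 and the other deprived groups of batch 1; ZT3 held batch 1 only, and the other control times held both.

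The mitochondrial ribosome translates the few messenger RNAs of the mitochondrial genome, all of which encode subunits of the respiratory chain and ATP synthase. Its proteins are encoded in the nucleus, made in the cytosol and imported, and they assemble on ribosomal RNAs that the mitochondrion itself transcribes. Part of the proteins have counterparts in bacterial ribosomes and the rest are specific to mitochondria.

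The start regions of 4 genes that the results below turn on are shown first, as their RNA changed during deprivation in both directions. The windows run from 250 bases before to 50 bases after the annotated start (RefSeq, GRCm38.p6) and were chosen after the values were seen. Capitals mark matches to CCGGAAG (the ETS and GABP motif), AAGATGGC (YY1), TGACGTCA (CRE) or GGGCGG (SP), on either strand.
Mrps11, chr7:78782881-78783180, plus strand: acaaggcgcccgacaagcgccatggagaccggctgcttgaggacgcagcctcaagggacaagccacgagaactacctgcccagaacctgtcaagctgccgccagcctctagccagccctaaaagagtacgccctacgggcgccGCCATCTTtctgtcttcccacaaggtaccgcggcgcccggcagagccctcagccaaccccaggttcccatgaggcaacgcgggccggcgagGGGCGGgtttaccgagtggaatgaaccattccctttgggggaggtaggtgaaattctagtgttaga
Mrps12, chr7:28741772-28742071, minus strand: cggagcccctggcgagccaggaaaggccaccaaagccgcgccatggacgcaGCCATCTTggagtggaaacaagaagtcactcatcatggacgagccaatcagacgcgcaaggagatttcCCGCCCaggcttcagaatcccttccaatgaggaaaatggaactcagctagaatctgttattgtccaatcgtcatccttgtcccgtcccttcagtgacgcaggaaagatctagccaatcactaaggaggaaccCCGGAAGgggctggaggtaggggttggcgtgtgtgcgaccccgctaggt
Mrpl34, chr8:71464676-71464975, plus strand: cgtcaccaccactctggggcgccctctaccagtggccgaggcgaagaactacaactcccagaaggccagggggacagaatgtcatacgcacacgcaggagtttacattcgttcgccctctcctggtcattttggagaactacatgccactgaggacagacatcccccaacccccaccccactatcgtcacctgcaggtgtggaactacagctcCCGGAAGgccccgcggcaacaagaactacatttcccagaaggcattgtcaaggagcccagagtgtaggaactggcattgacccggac
Mrpl16, chr19:11770165-11770464, plus strand: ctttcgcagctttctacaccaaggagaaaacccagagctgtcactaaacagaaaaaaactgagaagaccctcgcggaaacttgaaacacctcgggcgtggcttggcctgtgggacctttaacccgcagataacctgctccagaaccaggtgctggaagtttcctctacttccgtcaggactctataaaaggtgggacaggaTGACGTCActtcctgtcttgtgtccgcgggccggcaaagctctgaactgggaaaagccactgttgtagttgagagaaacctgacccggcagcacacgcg
Mrps11 encodes a small-subunit protein with a bacterial counterpart, and its window holds the YY1 and SP letters. Mrps12, the counterpart of the bacterial decoding-centre protein S12, holds those of ETS, YY1 and SP. Mrpl34, a small large-subunit protein with a bacterial counterpart, holds those of ETS. Mrpl16, a large-subunit protein with a bacterial counterpart, holds the CRE letters. A window was found for 68 of the 78 genes. The ETS letters were present in 24 of them (35.3%), against 8.86% of all 32851 windows and 16.9% of windows of measured genes. The YY1 letters were present in 12 (17.6%), against 2.75% and 4.5%. The NRF1 motif, searched as its palindromic core, was present in 3 (4.41%), against 0.971% and 2.02%. The SP letters were present in 34 (50.0%), against 35.7% and 64.2%. The CRE letters were present in 2 (2.94%, against 1.79% and 3.29%), the E-box CACGTG in 5 (7.35%, against 7.15% and 9.97%) and the ERR motif TCAAGGTCA in 0 (against 0.423% and 0.302%).

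All 78 genes were expressed in cortex, with mean log2 levels from 3.39 to 6.83. None lay below the 25th percentile of gene means and 67 lay above the median. The deposited levels are not known to be scaled by gene length, so levels are compared between animals and not between genes. Averaged over 77 of the genes, without the pseudogene, the log2 level stayed within a narrow span, from 5.21 ± 0.020 at ZT12 (SD, n = 5) to 5.31 ± 0.017 at T60 (SD, n = 3). With the log2 and offset undone, 4 excitatory neuron markers summed to 929 to 1010.0 units at ZT6, as a check of the labelled tissue. The choroid plexus markers Ttr and Kl summed to 3.32 to 7.69 at ZT6 and to 9.65 to 190.0 at ZT3. In bulk tissue, fewer cells of a type and less RNA per cell cannot be told apart.

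**Figure D1:**
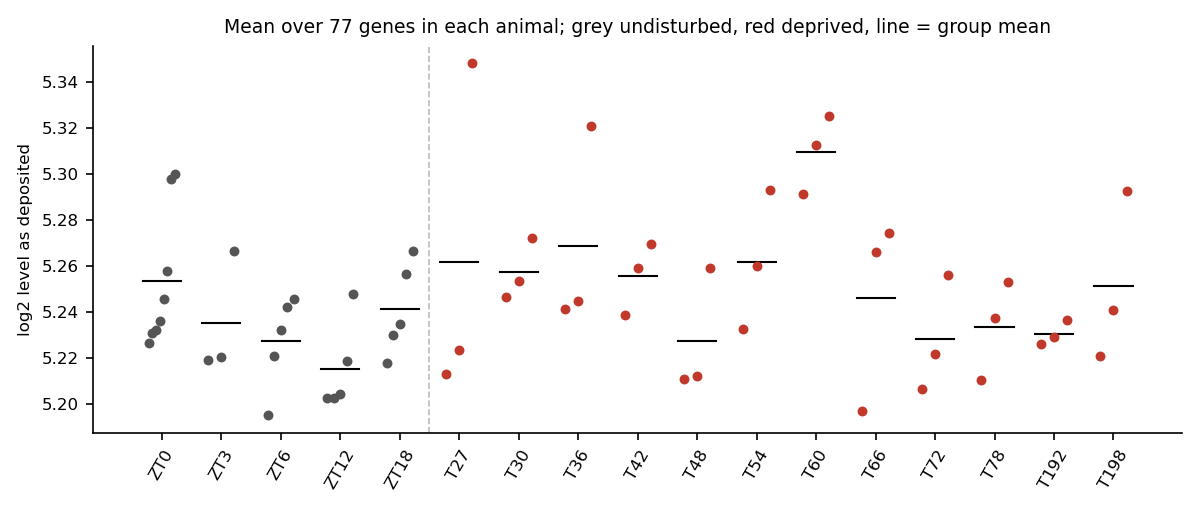
Mean log2 level over 77 genes, without the pseudogene (vertical axis), in each animal by group (horizontal axis), with a line at the group mean, grey for undisturbed and red for sleep-deprived animals. The group means lie between 5.21 at ZT12 and 5.31 at T60.

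Time of day in undisturbed mice was examined first, since it sets the baseline for every deprived group. In a limma F-test over the 5 control times, 21 of 78 genes differed at an adjusted p below 0.05 (26.9%), against 40.7% of all genes. Of these 21, 10 were highest at ZT18, in the dark phase when mice are mostly awake, and 5 at ZT6, in the light phase when they mostly sleep. The matching split of all genes called over the day is not given here, so these counts are not read as particular to this set.

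Among the called genes Mrps11 had the widest range of control means, 0.34 on the log2 scale (adjusted p = 4.28e-06, limma). Its log2 level ran from 4.92 to 5.06 at ZT0 (median 5.02, n = 8), was 4.70, 4.96 and 4.97 at ZT3, 4.58, 4.69, 4.70, 4.71 and 4.80 at ZT6, 4.68, 4.74, 4.75, 4.78 and 4.88 at ZT12, and 4.91, 4.93, 4.98, 5.11 and 5.25 at ZT18. Every ZT0 and ZT18 animal stood above every ZT6 and ZT12 animal. Mrps6, a small-subunit protein with a bacterial counterpart, ran from 4.95 to 5.14 at ZT0 (median 5.01, n = 8), was 4.82, 4.91 and 4.92 at ZT3, 4.64, 4.73, 4.76, 4.89 and 4.97 at ZT6, 4.73, 4.85, 4.87, 4.88 and 4.97 at ZT12, and 5.08, 5.10, 5.12, 5.15 and 5.24 at ZT18. The ZT18 animals stood above all animals of ZT3, ZT6 and ZT12 (range 0.34, adjusted p = 6.53e-06, limma). Mrpl34 ran from 4.81 to 4.95 at ZT0 (median 4.91, n = 8), was 4.88, 4.92 and 4.97 at ZT3, 4.59, 4.61, 4.62, 4.74 and 4.80 at ZT6, 4.72, 4.79, 4.80, 4.85 and 4.89 at ZT12, and 4.92, 4.93, 4.98, 5.01 and 5.02 at ZT18. All ZT6 animals were below all animals of ZT0, ZT3 and ZT18 (range 0.30, adjusted p = 0.000138, limma).

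Mrps12 was also highest at ZT18 and lowest at ZT6. It ran from 5.65 to 5.89 at ZT0 (median 5.77, n = 8), was 5.68, 5.74 and 5.77 at ZT3, 5.39, 5.57, 5.60, 5.67 and 5.78 at ZT6, 5.53, 5.65, 5.69, 5.78 and 5.81 at ZT12, and 5.78, 5.79, 5.81, 5.88 and 6.00 at ZT18, so that ZT18 stood above ZT3 and ZT6 and overlapped ZT0 and ZT12 (range 0.25, adjusted p = 0.00716, limma). The opposite order was seen for Mrpl17, a large-subunit protein with a bacterial counterpart. It ran from 5.31 to 5.53 at ZT0 (median 5.45, n = 8), was 5.31, 5.44 and 5.44 at ZT3, 5.41, 5.47, 5.48, 5.53 and 5.55 at ZT6, 5.27, 5.28, 5.32, 5.36 and 5.44 at ZT12, and 5.11, 5.14, 5.17, 5.22 and 5.27 at ZT18. No ZT18 animal reached the levels of ZT0, ZT3 or ZT6 (range 0.31, adjusted p = 0.000839, limma). Mrpl23, a large-subunit protein at the exit of the peptide tunnel, ran from 4.87 to 5.20 at ZT0 (median 5.05, n = 8), was 5.15, 5.16 and 5.18 at ZT3, 4.72, 4.98, 5.06, 5.06 and 5.18 at ZT6, 5.03, 5.10, 5.12, 5.17 and 5.38 at ZT12, and 4.57, 4.77, 4.81, 4.88 and 5.13 at ZT18. Every ZT3 animal stood above every ZT18 animal, and the other pairs of times overlapped (range 0.33, adjusted p = 0.0210, limma). Mrpl23 shares sequence with Mrpl23-ps1, so that its reads may be split between them. The call of Mrpl23 was lost without the ZT18 animal T18N4 or without T18N8.

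Within batch 1 alone, 9 of 78 genes differed over the day (23.4% of all genes did), and within batch 2, which has no ZT3, 3 did (7.86% of all genes did). The range of Mrps11 was 0.44 within batch 1 (adjusted p = 0.000211, limma) and 0.25 within batch 2 (adjusted p = 0.0628, limma). Those of Mrps6 were 0.38 and 0.28, of Mrpl34 0.32 and 0.26, of Mrps12 0.27 and 0.22, of Mrpl17 0.26 and 0.37 and of Mrpl23 0.32 and 0.36. Mrps6, Mrpl34 and Mrps12 passed in batch 1 and not in batch 2 (adjusted p = 0.0733, 0.127 and 0.291, limma). Mrpl17 passed in batch 2 and not in batch 1 (adjusted p = 0.105, limma), and Mrpl23 passed in neither (adjusted p = 0.0631 and 0.106, limma).

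The comparison of mid-dark with mid-light, ZT18 against ZT6, split the genes almost evenly, with 13 higher and 10 lower (29.5%, against 29.7% of all genes, of which 15.4% were higher and 14.3% lower). The rises were led by Mrps6 (log2 change 0.34 ± 0.055 SE), Mrps11 (0.34), Mrpl34 (0.30) and Mrpl24, a protein that starts large-subunit assembly in bacteria. Mrpl24 was 5.68, 5.71, 5.72, 5.74 and 5.74 at ZT6 and 5.77, 5.77, 5.88, 5.89 and 5.90 at ZT18, with no overlap (change 0.13, adjusted p = 0.00107, limma). Further rises were those of Mrps12 (0.25), Mrpl42 (0.15), Mrpl12 (0.17), Mrpl53 (0.19), Mrpl28 (0.14), Mrpl4 (0.16), Mrps21 (0.13), Mrps17 (0.12) and Mrps25 (0.13).

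The falls at ZT18 were led by Mrpl17 (-0.31 ± 0.063 SE, adjusted p = 0.000183, limma). Mrpl10, which anchors the stalk that recruits translation factors, was 5.38, 5.42, 5.43, 5.48 and 5.50 at ZT6 and 5.27, 5.28, 5.29, 5.30 and 5.32 at ZT18 (change -0.15, adjusted p = 0.00249, limma). Mrpl3 was 6.04, 6.06, 6.06, 6.08 and 6.12 against 5.91, 5.94, 5.97, 5.98 and 5.99 (change -0.11, adjusted p = 0.00592, limma). Mrpl33 was 5.69, 5.70, 5.70, 5.71 and 5.74 against 5.34, 5.46, 5.54, 5.61 and 5.65 (change -0.19, adjusted p = 0.0118, limma), a call that was lost without the ZT18 animal T18N3. In all of these genes the ZT6 and ZT18 animals did not overlap. Mrpl16 (-0.17), Mrpl11 (-0.11), Mrps18b (-0.13), Mrps28 (-0.18), Mrps10 (-0.11) and Mrps33 (-0.11) also fell. Their calls were kept in 14, 15, 14, 10, 12 and 11 of 20 alternative runs, in that order. Without the ZT6 animal T6N2, 15 genes were called, and within batch 1 11 were. Among cell type markers at ZT18, the oligodendrocyte marker Mog fell (-0.43), while Neurod6 of excitatory neurons (0.28), Tmem119 of microglia (0.26), Flt1 of endothelium (0.17) and Cspg4 of oligodendrocyte precursors (0.19) rose. The summed lists of these cells overlapped between ZT18 and ZT6. The oligodendrocyte sums were 1590 to 1940 at ZT18 and 1580 to 2080 at ZT6, and the excitatory sums 970 to 1080 against 929 to 1010. Those of microglia were 116 to 135 against 125 to 133, of endothelium 79.3 to 96.3 against 77.1 to 86.6 and of precursors 20.7 to 24.9 against 20.9 to 24.2. The part of these markers in the result was not tested.

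After 3 h of deprivation few of the genes had changed. At T27, 3 genes were higher and 3 lower than at ZT3 (7.69%, against 15.6% of all genes, 8.21% higher and 7.37% lower), and the median change over the 78 was 0.02, against -0.01 over all genes. Without T27S3 it was -0.01. Mrpl42 was 6.42, 6.42 and 6.43 at ZT3 and 6.54, 6.59 and 6.61 at T27 (change 0.16 ± 0.052 SE, adjusted p = 0.0302, limma). Mrpl4, of the tunnel wall, was 5.36, 5.37 and 5.41 against 5.47, 5.63 and 5.66 (0.21, adjusted p = 0.0459, limma). Mrps6 was 4.82, 4.91 and 4.92 against 5.01, 5.04 and 5.20 (0.20, adjusted p = 0.0491, limma). In Mrpl42, Mrpl4 and Mrps6 the groups did not overlap. Here and in the other comparisons, overlap describes the same values that were tested and adds no support to a call.

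Among the genes that fell at T27, Mrps10 was 5.05, 5.19 and 5.22 at ZT3 and 4.93, 4.94 and 5.10 at T27, which overlap (-0.16 ± 0.052 SE, adjusted p = 0.0237, limma). Mrpl16 was 4.94, 4.99 and 5.01 against 4.65, 4.72 and 4.91 (-0.22, adjusted p = 0.0312, limma), and Mrps15 was 5.48, 5.52 and 5.58 against 5.33, 5.34 and 5.43 (-0.16, adjusted p = 0.0436, limma), both without overlap. None of these calls held without each animal in turn: there were 2 without T27S2, 3 without T27S5, 2 without T3N2, 1 without T3N3, 2 without T3N4 and 4 without T27S3. With only T27 and ZT3 in the fit 1 was called. All ZT3 animals had more choroid plexus RNA than the T27 animals, with Ttr and Kl summing to 9.65, 27.2 and 190.0 at ZT3 and to at most 6.74 at T27. Pdgfrb of mural cells (-0.34), P2ry12 of microglia (-0.21) and Tbr1 of excitatory neurons (-0.17) fell and Neurod6 rose (0.44). The summed lists of these cells overlapped. The mural sums were 72.2 to 77.7 at T27 and 76.6 to 83.9 at ZT3. The microglial sums were 124 to 129 against 123 to 141, and the excitatory sums 923 to 999 against 910 to 984. The part of the choroid plexus RNA and of these markers in the result was not tested.

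After 6 h of deprivation 15 of the 78 genes had risen and 6 had fallen at T30 against ZT6 (26.9%, against 31.6% of all genes, 16.0% higher and 15.6% lower). The median change was 0.02, against -0.00292 over all genes. Of the large-subunit genes 9 of 50 rose and 5 fell, and of the small-subunit genes 6 of 26 rose and 1 fell. The sorting by subunit was made after the calls were known and is a description.

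Mrps11 rose most, from 4.58, 4.69, 4.70, 4.71 and 4.80 at ZT6 to 4.95, 5.02 and 5.07 at T30 (log2 change 0.32 ± 0.070 SE, a 1.25-fold rise, adjusted p = 0.000388, limma). Mrps6 went from 4.64, 4.73, 4.76, 4.89 and 4.97 to 5.04, 5.08 and 5.09 (0.27 ± 0.065 SE, adjusted p = 0.00131, limma). Mrpl35, a large-subunit protein with a bacterial counterpart, went from 3.95, 4.05, 4.05, 4.06 and 4.10 to 4.17, 4.21 and 4.24 (0.16 ± 0.044 SE, adjusted p = 0.00345, limma). In each of these genes every deprived animal was above every control.

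Mrpl34 went from 4.59, 4.61, 4.62, 4.74 and 4.80 to 4.85, 4.91 and 4.96 (0.24 ± 0.065 SE, adjusted p = 0.00369, limma), again without overlap. Mrpl12, the stalk protein that is also known to bind the mitochondrial RNA polymerase, was 5.60, 5.65, 5.67, 5.72 and 5.72 at ZT6 and 5.82, 5.85 and 5.90 at T30 (0.19 ± 0.055 SE, adjusted p = 0.00628, limma), with no overlap. Mrpl21 (0.18), Mrps2 (0.16), Mrps25 (0.22), Mrpl28 (0.19), Mrps12 (0.24), Mrpl51 (0.21), Mrpl42 (0.15), Mrpl53 (0.19), Mrps21 (0.16) and Mrpl46 (0.13) rose as well.

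Of the genes that fell at T30, Mrpl16 went from 4.86, 4.97, 5.03, 5.05 and 5.08 to 4.66, 4.79 and 4.83 (-0.24 ± 0.067 SE, adjusted p = 0.00533, limma). Mrpl11, at the factor-binding site of the large subunit, went from 4.16, 4.18, 4.26, 4.29 and 4.33 to 4.04, 4.13 and 4.14 (-0.14, adjusted p = 0.00984, limma). Mrpl10 went from 5.38, 5.42, 5.43, 5.48 and 5.50 to 5.28, 5.31 and 5.32 (-0.14, adjusted p = 0.0136, limma). In all of them no deprived animal reached a control. Mrpl3 (-0.10) and Mrpl2 (-0.21), both with bacterial counterparts, also fell. Over 18 alternative runs the call of Mrpl3 was kept in 13 and that of Mrpl2 in 10.

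Mrps18a, Mrps18b and Mrps18c are paralogs of 1 bacterial protein, S18, of which Mrps18a sits in the large subunit. Mrps18b fell, from 5.30, 5.31, 5.38, 5.42 and 5.47 to 5.17, 5.18 and 5.21 (-0.18 ± 0.058 SE, adjusted p = 0.0140, limma). Mrps18a was 5.92, 5.96, 6.08, 6.09 and 6.15 at ZT6 and 6.05, 6.12 and 6.13 at T30 (0.07, adjusted p = 0.295, limma). Mrps18c was 5.42, 5.52, 5.57, 5.59 and 5.63 against 5.46, 5.55 and 5.62 (-0.01, adjusted p = 0.959, limma). The differences between the paralogs were not tested.

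The calls of Mrps11, Mrps6, Mrpl35, Mrpl34 and Mrpl12 at T30 held without each animal in turn. Those of Mrpl16, Mrpl11 and Mrps18b were lost without T30S4, that of Mrpl10 without T30S3 and that of Mrps12 without the ZT6 animal T6N4. Without T30S4, 13 genes were called, with controls of batch 1 alone 17 were, and with only T30 and ZT6 in the fit 9 were. Among the markers of other cells at T30, the mural marker Pdgfrb (-0.26) and the striatal marker Drd1 (-0.32) fell and the excitatory neuron marker Neurod6 (0.43) rose. Each is a single marker of its list, and the summed lists overlapped. The mural sums were 72.1 to 78.7 at T30 and 73.8 to 87.8 at ZT6. The striatal sums were 4 to 5.23 against 4.51 to 5.82, and the excitatory sums 948 to 1010 against 929 to 1010. The microglial P2ry12 and Cx3cr1 fell and Tmem119 rose, the summed microglial list being 120.0 to 124 at T30 and 125 to 133 at ZT6, and 1 of 4 oligodendrocyte markers, Mog, fell, with sums of 1430.0 to 1920.0 against 1580.0 to 2080.0. Their part in the result was not tested.

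**Figure D2:**
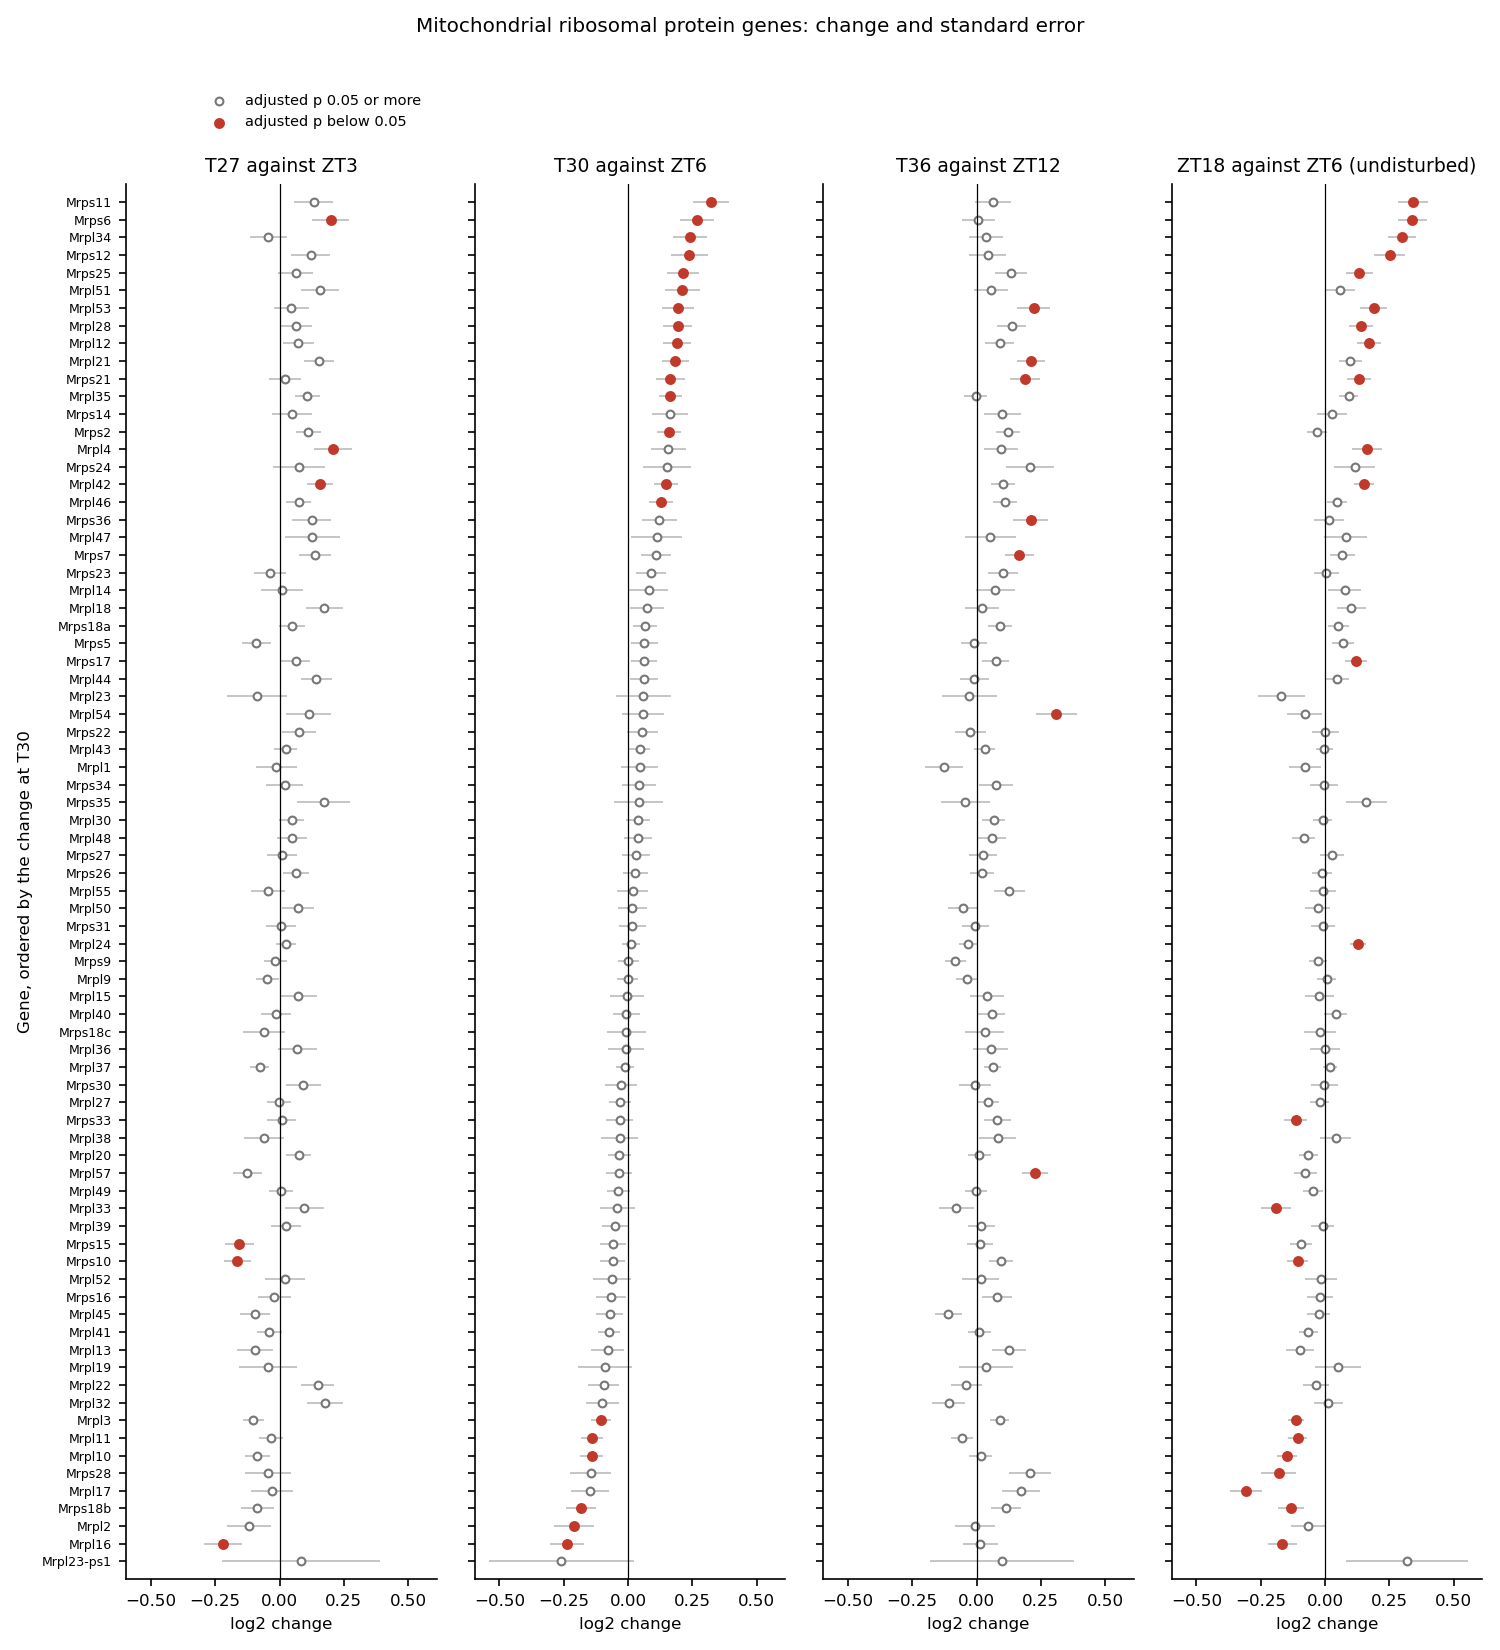
Log2 change with its standard error (horizontal axis) of each of the 78 genes, ordered by the change at T30, with filled points for adjusted p below 0.05. At T30 15 genes rose and 6 fell, with Mrps11 highest at 0.32; T30 and ZT18 are both set against the same ZT6 animals, so likeness between those panels is no result.

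T30 against ZT6 and ZT18 against ZT6 share their control animals, so their values are given side by side only. The changes were 0.32 and 0.34 for Mrps11, 0.27 and 0.34 for Mrps6, 0.24 and 0.30 for Mrpl34, 0.24 and 0.25 for Mrps12, 0.19 and 0.17 for Mrpl12, -0.24 and -0.17 for Mrpl16 and -0.14 and -0.15 for Mrpl10. For Mrpl24 they were 0.01 and 0.13, and for Mrpl17 -0.15 and -0.31, of which only the second of each passed the test.

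**Figure D3:**
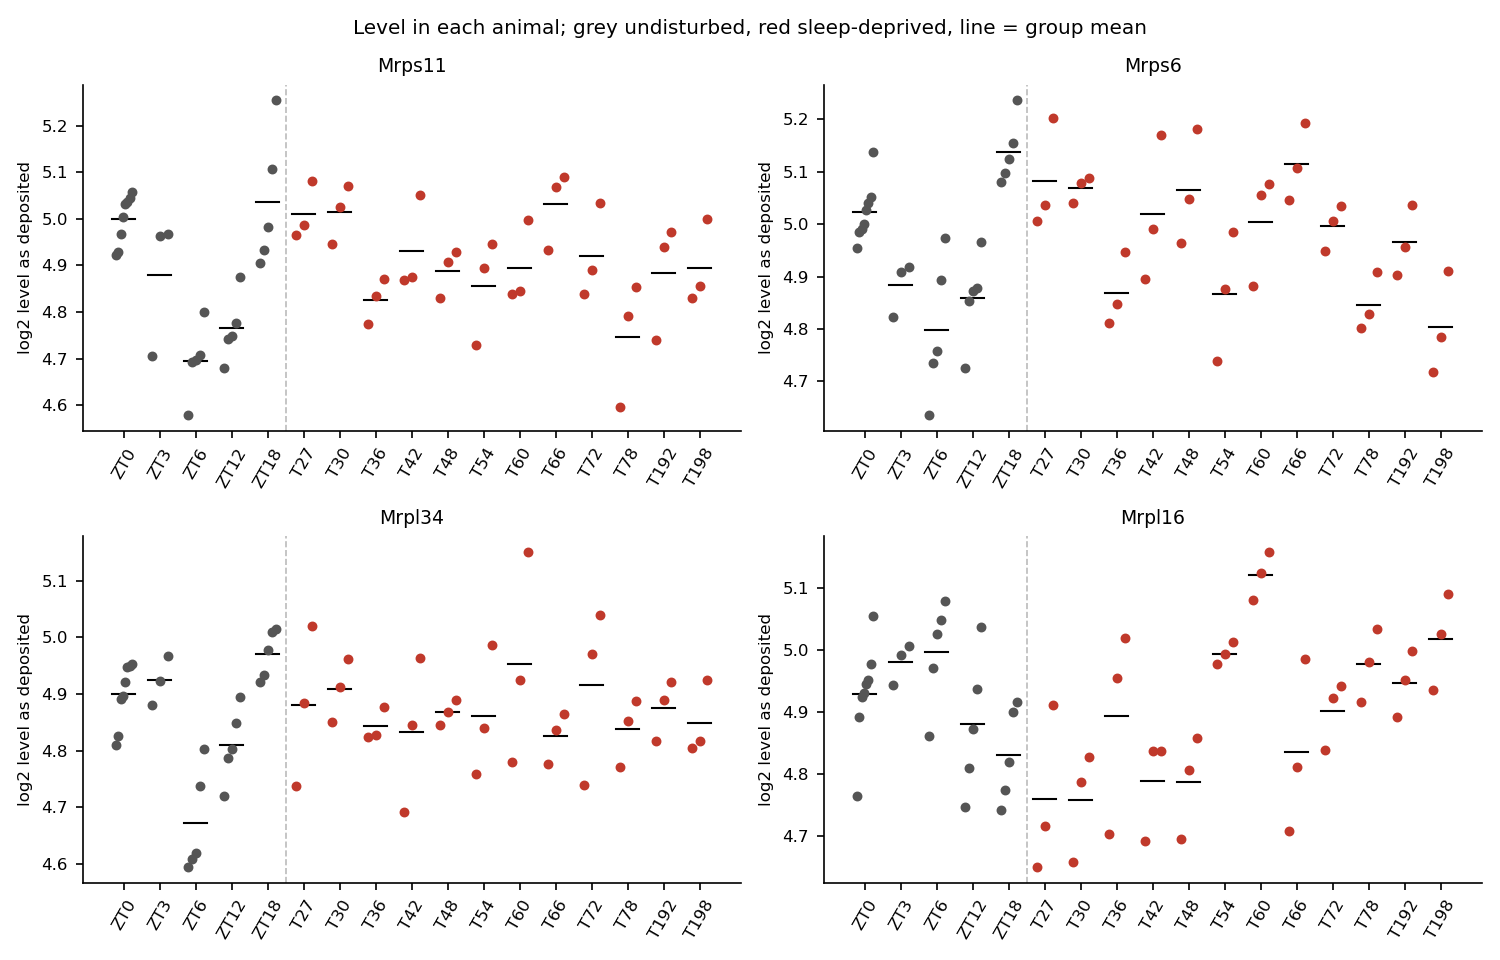
Log2 level (vertical axis) of Mrps11, Mrps6, Mrpl34 and Mrpl16 in each animal by group (horizontal axis), with a line at the group mean. At T30 the first 3 lie above all ZT6 animals and Mrpl16 lies below them.

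At T36, 12 h after deprivation began and during recovery, 7 genes were higher than at ZT12 and 0 lower (8.97%, against 11.9% of all genes, 7.46% higher and 4.46% lower). The median change was 0.05 and 74.4% of the 78 lay above 0, against 0.00397 and 51.5% for all genes. Without T36S1, the animal with the highest mean over the genes at T36, the median was 0.03 and 60.3% lay above 0. The mean log2 level over cytosolic ribosomal protein genes was 7.65, 7.69, 7.70, 7.74 and 7.74 at ZT12 and 7.71, 7.73 and 7.81 at T36. That over respiratory chain genes was 7.15, 7.15, 7.15, 7.17 and 7.23 against 7.18, 7.22 and 7.24. T36S1 was the highest T36 animal in both. Whether the shift differs between these sets was not tested. Mrpl57 was 3.54, 3.55, 3.65, 3.65 and 3.67 at ZT12 and 3.76, 3.81 and 3.93 at T36 (0.23 ± 0.052 SE, adjusted p = 0.00215, limma). Mrpl21 was 5.21, 5.26, 5.27, 5.33 and 5.33 against 5.41, 5.43 and 5.62 (0.21, adjusted p = 0.00473, limma). Mrpl54 was 4.75, 4.81, 4.82, 4.84 and 4.92 against 5.14, 5.14 and 5.15 (0.31, adjusted p = 0.00728, limma).

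Mrpl53 was 5.06, 5.10, 5.14, 5.17 and 5.18 at ZT12 and 5.29, 5.33 and 5.42 at T36 (0.22, adjusted p = 0.0141, limma). The T36 animals exceeded all controls in each of these genes. Mrps21 (0.19), Mrps7 (0.17) and Mrps36 (0.21) also rose. Over 18 alternative runs the call of Mrps21 was kept in 13 and those of Mrps7 and Mrps36 in 8 apiece. The call of Mrpl54 held without each animal in turn, and those of Mrpl57, Mrpl21 and Mrpl53 were lost without T36S1. Leaving out T36S1 left 2 calls, T36S2 left 4 and the ZT12 animal T12N6 left 4, with controls of batch 1 alone 4 were called, and with only T36 and ZT12 in the fit 2 were. The astrocyte marker Gfap and the microglial marker C1qa (0.23) rose, and all 4 oligodendrocyte markers lay below 0 without passing the test, with oligodendrocyte sums of 1510.0 to 1620.0 at T36 and 1600.0 to 2050.0 at ZT12, and their part was not tested.

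The change of the deprivation effect from T30 to T36 was tested as a difference of differences, and 6 of 78 genes passed (7.69%, against 11.4% of all genes, 5.61% higher and 5.75% lower). Mrps18b went from -0.18 at T30 to 0.12 at T36 (difference 0.30 ± 0.081 SE, adjusted p = 0.00998, limma). Mrpl3 went from -0.10 to 0.09 (difference 0.19, adjusted p = 0.00959, limma), Mrpl57 from -0.04 to 0.23 (0.26, adjusted p = 0.0110, limma), Mrps28 from -0.15 to 0.21 (0.35, adjusted p = 0.0304, limma) and Mrpl17 from -0.15 to 0.17 (0.32, adjusted p = 0.0330, limma). Mrps6 alone moved down, from 0.27 to 0.01 (-0.26, adjusted p = 0.0499, limma). Without T30S1, or without the ZT12 animal T12N6, 3 genes were called. The calls of Mrps18b and Mrpl3 held without each animal in turn, that of Mrpl57 was lost without T36S1, and that of Mrps6 held only without T6N3, J76N1, T36S1 or T12N5. In limma 0 genes passed from T27 to T30 (0.00722% of all genes did, all higher), with 4 at an unadjusted p below 0.05. From T36 to T42 0 passed (3.3% of all genes did, 1.22% higher and 2.08% lower), with 8 at an unadjusted p below 0.05. The unadjusted counts have no share of all genes beside them and are not read as a result.

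At T42 the pseudogene Mrpl23-ps1 was the only call, against 1.05% of all genes, 0.614% higher and 0.433% lower. It was 3.98, 4.19, 4.21, 4.24 and 4.64 at ZT18 and 2.72, 3.26 and 3.41 at T42 (-1.16 ± 0.28 SE, adjusted p = 0.0232, limma), while its parent Mrpl23 stood at 0.34 (adjusted p = 0.124, limma). Reads of gene and pseudogene may be split between them. The call was lost without T42S4, T42S6, T18N2 or T18N8, and 2 genes were called without T42S2 or without T18N3. It was also lost with only T42 and ZT18 in the fit and with controls of batch 1 alone.

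From T48 onward 0 of the 78 genes passed in limma in any comparison, where between 0% and 1.27% of all genes did. Of all genes 1.27% were called at T48 (0.571% higher and 0.701% lower) and 0.0795% at T66 (0.0433% higher and 0.0361% lower). At T54, T60, T72 and T198 the share was 0.00722%, higher except at T198, and at T78 and T192 it was 0%. The count at an unadjusted p below 0.05 was 6 at T48, 8 at T54, 26 at T60, 3 at T66, 3 at T72, 3 at T78, 5 at T192 and 4 at T198. The share of all genes at that unadjusted threshold is not given here, so these counts are not read as a result about the 78 genes. At T60, 36 h after deprivation began, 92.3% of the 78 lay above 0 with a median of 0.10, against 56.7% and 0.01 for all genes. Cytosolic ribosomal protein genes (94.8% above 0, median 0.07) and respiratory chain genes (95.3%, median 0.10) lay above 0 as well. T60 is wholly batch 2 and only 2 of the ZT12 controls are, and all 4 oligodendrocyte markers were above 0, with sums of 1950.0 to 2200.0 against 1600.0 to 2050.0; their part was not tested. At T54, leaving out T54S4 gave 6 calls. The share of all genes called without that animal is not given here, so this count is not read as a result about the 78 genes.

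The contrast with related machinery was made by share of genes called. Of 77 cytosolic ribosomal protein genes 1.30% were called at T27, 2.60% at T30, 2.60% at T36 and 1.30% over the day. Of 86 respiratory chain and ATP synthase genes the shares were 0%, 11.6%, 4.65% and 11.6%. The mitochondrial ribosomal protein genes, at 7.69%, 26.9%, 8.97% and 26.9%, lay above both lists and below all genes in each of these 4 comparisons. The difference between the groups was not tested.

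**Figure D4:**
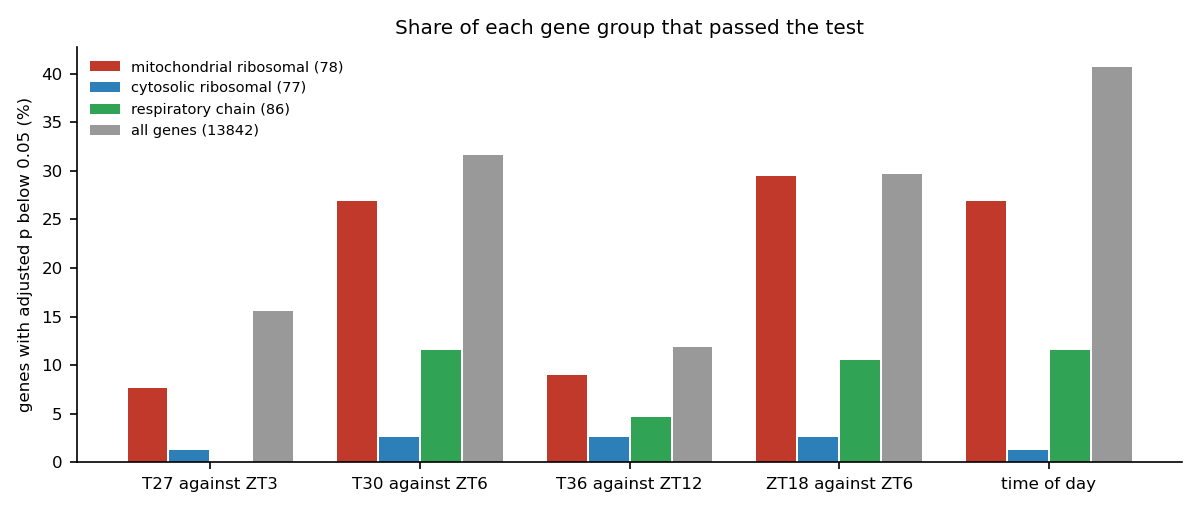
Percent of genes with an adjusted p below 0.05 (vertical axis) in 5 comparisons for the 78 mitochondrial ribosomal, 77 cytosolic ribosomal and 86 respiratory chain genes and for all 13842 genes. At T30 the shares are 26.9%, 2.60%, 11.6% and 31.6%.

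Other genes of mitochondrial translation were counted from lists, beside which 16.0% of all genes rose and 15.6% fell at T30. Of 6 measured mitoribosome proteins with other symbols, 1 rose at T30: Gadd45gip1 (0.14, adjusted p = 0.0484, limma). Ict1, the older symbol of Mrpl58, a peptidyl-tRNA hydrolase of the large subunit, was 6.24, 6.25, 6.28, 6.31 and 6.37 at ZT6 and 6.22, 6.31 and 6.31 at T30 (-0.01, adjusted p = 0.940, limma). Of 26 assembly and rRNA modification genes 0 rose and 2 fell, the GTPase Gtpbp10 (-0.28) and the pseudouridine synthase Trub2 (-0.25).

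Of 16 translation factors and activators 1 rose at T30, Tufm, the elongation factor that delivers tRNA (0.24, adjusted p = 0.000474, limma). In that list 3 fell: the elongation factor Guf1 (-0.46, adjusted p = 5.01e-07, limma), the release factor Mtrf1 (-0.41) and the initiation factor Mtif2 (-0.18). Of 11 transcription and DNA maintenance genes only Peo1, the older symbol of the helicase Twnk, rose (0.18). Of 12 nuclear regulators 5 rose and 1 fell. The rises included Nrf1 (0.25, adjusted p = 0.000818, limma), Esrra (0.28, adjusted p = 0.000987, limma) and Ppargc1b (0.40, adjusted p = 0.00276, limma), all known to act on nuclear genes of mitochondria. At T36 Tufm (0.22) and Nrf1 (0.18) were again higher.

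Several of the genes share a start region or overlap a neighbour. At T30 there were 23 pairs of genes with start sites in 1 peak. Of these pairs 1 was Mrpl46 with Mrps11, both mitoribosomal, in which Mrps11 was counted as the partner. Counted in this way, 7 of the mitoribosomal genes and 6 of the partners were called. In 3 pairs both were called, and 2 of these moved the same way. The called partners, with Mrps11 among them, are 26.1% of the pairs, against 31.6% of all genes. This is therefore not the share of outside neighbours alone. Mrpl46 and Mrps11 lie head to head on chromosome 7 and both rose. Mrps6 lies around Slc5a3, the myo-inositol transporter, which rose more (0.74 ± 0.089 SE, adjusted p = 1.19e-08, limma), and reads of both could be exchanged where their transcripts overlap. Mrpl51 rose while its partner Ncapd2, a condensin subunit, fell (-0.37), and Mrpl53 rose while the overlapping Ccdc142 fell (-0.63). Sars2, which shares its start region with Mrps12, stood at -0.11 (adjusted p = 0.270, limma).

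Open chromatin at the start sites was measured in 59 animals, with ZT18 reduced to 4 and T66 to 1. All 74 start sites of the 68 genes with a window had an ATAC peak within 1000 bases, against 89.0% of start sites of measured genes, in 73 peaks with a median width of 1023 bases against 546 for all peaks. The width of start-site peaks of measured genes is not given here, so the difference in width is not read as particular to this set. Of the 73 peaks 26 also held the start site of another gene. In limma 0 of the 73 peaks passed at T27 (0.689% of all peaks did), T30 (2.60%), T36 (0.618%) or over the day (1.39%). The counts at an unadjusted p below 0.05 were 9, 6, 3 and 16, and edgeR on the recovered reads called 0 in each. The unadjusted counts have no share of all peaks beside them and are not read as a result.

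At T30, 68 of the 73 peaks lay below 0 (93.2%), with a median log2 change of -0.18. Of 11275 start-site peaks of measured genes 73.9% lay below 0, with a median of -0.11; this reference was added after the values were seen. At T27 the shares were 78.1% and 77.5%, with medians of -0.20 and -0.14, and at T36 they were 52.1% and 48.6%. The share of all ATAC signal that fell in start-site peaks was 24.8% ± 0.67 at ZT6 (SD, n = 5) and 23.1% ± 0.53 at T30 (SD, n = 3), and its part in the shift was not tested. The peak with the smallest adjusted p at T30 was one of Mrpl48, chr7:100582677-100583306 (mm10), at -0.73 ± 0.23 SE (adjusted p = 0.0572, limma). This peak lies inside the gene (100545779 to 100608301, minus strand) and not over its window at 100608252 to 100608551. The peak shared by Mrps11 and Mrpl46, chr7:78782604-78783642, over the window shown for Mrps11, stood at -0.19 (adjusted p = 0.547, limma), while the RNA of both genes was higher. That of Mrps6 stood at -0.30 (adjusted p = 0.310, limma) and that of Mrpl16 at -0.23 (adjusted p = 0.635, limma).

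**Figure D5:**
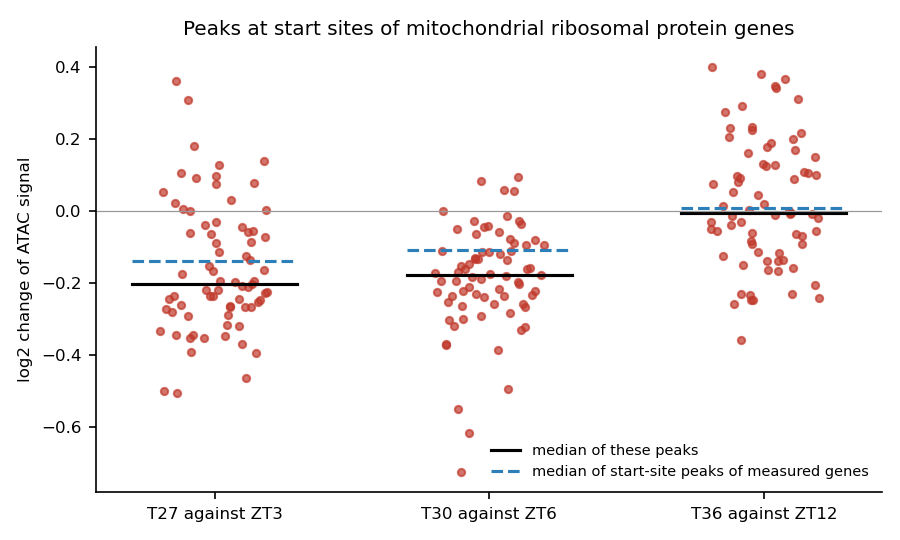
Log2 change of ATAC signal (vertical axis) of the 73 peaks at start sites in 3 comparisons, with a solid line at their median and a dashed line at the median of start-site peaks of measured genes. At T30 68 of 73 peaks lie below 0, with medians of -0.18 and -0.11.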

How the data were processed

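RNA values are the authors' deposited log2 levels, with an offset of 0.5 in the values and batch adjusted before deposit. ATAC values are the authors' deposited normalized signal per peak. The submitters' processing notes name kallisto 0.43.0, sleuth 0.29.0, Bowtie2, MACS2 2.1.1, bedtools 2.26.0 and HTSeq 0.6.1, with builds GRCm38 and mm10. Peak positions are as the authors deposited them. Whole reads were recovered from the signal (100% of values, tolerance 0.02), 2.21 to 11.9 M per library (median 4.09 M). The repeat ATAC library of 1 animal was left out, and the RNA column that merges both libraries of T0N5 was counted as batch 1. RNA depth is unknown from the values.

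Per gene or peak, limma 3.58.1 (R 4.3.3) fitted a mean per group and a batch term over all 62 RNA or 59 ATAC animals, with an intensity trend and 44 or 41 residual degrees of freedom; ATAC signal entered as log2 of the value plus 0.5. Tests were two-sided, Benjamini-Hochberg adjusted over all 13842 genes or 130727 peaks, with calls below 0.05. edgeR 4.0.16 was run on recovered reads as an alternative, and the fits were tested on simulated data. Named were, per comparison and direction, the 4 called genes with the smallest adjusted p with all values, up to 8 more with a change only, the 6 widest over the day, the Mrps18 paralogs, Mrpl12 and Mrpl58, and 3 called genes per list. Mrpl53, Mrps21 and Mrpl46 at T30 and Mrps25 at ZT18 fell outside this rule and were added after their values were seen, as was the sorting by subunit. The members and lists were chosen with earlier results of these data known. Same-numbered animals do not pair: the median residual correlation was -0.00137 over 330 pairs. Animals are separate mice.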

Additional observations from a re-analysis of the deposited data

Results flagged for a closer look

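A check for single animals far from their group was made on 108 groups (27 genes in 4 control times); chance gives about 1 group in 20, and 5 were found. Mrpl23-ps1 was 2.56 in the ZT0 animal T0N8, against 3.70 to 4.17 in the others. Mrpl57 was 3.79 in the ZT0 animal J70N2, against 3.64 to 3.70. Mrps18b was 5.08 in the ZT18 animal T18N4, against 5.26 to 5.30. Mrps18c was 5.77 in the ZT12 animal T12N4, against 5.51 to 5.58. Mrps28 was 3.53 in the ZT12 animal T12N6, against 3.72 to 3.80.

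The deprivation effect differed between T30 and T36 in limma for 6 genes, by 0.32 for Mrpl17, 0.19 for Mrpl3, 0.26 for Mrpl57, 0.30 for Mrps18b, 0.35 for Mrps28 and -0.26 for Mrps6. The calls of Mrps28, Mrpl17 and Mrps6 were each lost without the T30 animal T30S1 and without the ZT12 animal T12N6, and that of Mrpl57 without T36S1.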

How the results depend on the processing

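No call of a named gene changed direction under any alternative run; over settings other than leaving out an animal, 565 of the gene values kept their side of the threshold and 77 fell short of it, and with an animal left out 528 kept it and 140 fell short. With only the 2 groups in the fit, the count of called genes was 1 at T27, 9 at T30, 2 at T36 and 0 at T42. With controls of the same batch it was 4 at T36 and 0 at T42. Within batch 1 it was 11 for ZT18 against ZT6 and 9 over the day, and within batch 2 it was 3 over the day; the last 2 were chosen after seeing the data. At T48 it was 1 without a batch term, with median centring and with quantile normalization. With a replicate block it was 3 for T36 minus T30, 1 for T42 minus T36 and 1 start-site peak at T30, and no other count moved by over 1.5 times; the numbers do not pair the animals. At T30 2 start-site peaks were called without a batch term and 1 with quantile normalization. The cause of these changes was not tested. The first 3 settings also held fewer samples. Leaving out 1 animal at a time gave 1 to 4 calls at T27, 13 to 21 at T30, 2 to 7 at T36, 0 to 2 at T42, 0 to 6 at T54, 15 to 21 for ZT18 against ZT6, 18 to 24 over the day, 3 to 7 for T36 minus T30, 0 to 1 for T42 minus T36 and 0 to 1 start-site peaks at T30; with ZT0 controls only deprived animals were left out. Groups of 3 limit what can be called.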
